A study of Homo sapiens with 4 samples.

Results

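The human mitochondrial genome has 13 protein-coding genes, 22 tRNA genes and 2 rRNA genes, and its transcripts were followed here by class, strand and order on the genome. Each protein-coding gene is counted as 1 mRNA below, also where such genes overlap. Every row of the count table whose gene name starts with MT- was taken, which gave 35 of the 57014 named rows: all 13 mRNAs and all 22 tRNAs. The rRNA genes MT-RNR1 and MT-RNR2 were not analysed here. All libraries were made from poly(A)-selected RNA of the human prostate cancer line 22Rv1. The control group has 2 libraries (replicates 1 and 3) that are labelled wild type and carry sgGFP in their names. The CD276 knockout group has 2 libraries (replicates 1 and 3) that carry sgCD276 in their names. All 4 share the growth medium, RPMI-1640 with fetal bovine serum. The sources used here do not say whether the edited cells were a pool or a clone, or whether the replicates were separate cultures. The p-values thus only set a group difference against the variation between these libraries, and what that variation stands for is not known. CD276 codes for the immune checkpoint protein B7-H3, which sits on the cell surface.

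Both strands of the circular mitochondrial genome are transcribed as long precursor RNAs. Most genes are read from 1 strand (annotated as plus), with tRNAs set between the mRNAs and rRNAs. The tRNAs are cut out at both ends, RNase P acting at the 5′ end and ELAC2 at the 3′ end, and this frees the mRNAs. The poly(A) polymerase MTPAP then adds tails to most mitochondrial mRNAs, while a mature tRNA ends in CCA and has no poly(A) tail. The mRNAs encode core subunits of the respiratory chain complexes I, III and IV and of ATP synthase, which produce most of the ATP of respiring cells.

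Values of a group are given in the order replicate 1, replicate 3. The gene counts summed to 23206271 and 20079050 in the controls and to 24437926 and 25802417 in the knockouts. All 9 prostate epithelial markers examined were above 1 normalized CPM (counts scaled to a common library size) in every library, with summed levels of 3442 to 3569 in the controls and 2696 to 3489 in the knockouts. Summed immune markers were at 0.190 to 0.465, endothelial ones at 0 to 0.0773 and basal ones at 0 to 0.193 over the 4 libraries. Of the 2 fibroblast markers, the collagen gene COL1A1 was at 48.1 ± 2.70 (SD, n = 2) in the controls and 24.0 ± 7.25 in the knockouts, and DCN at 0.193 ± 0.0194 and 0.479 ± 0.0221. Their part in the results was not tested. CD276 fell from 50.9 ± 4.98 to 24.9 ± 1.84 normalized CPM, a log2 fold change of -1.03 ± 0.16 (SE; edgeR adjusted p = 0.00561). Its adjusted p was 0.0812 without control replicate 3. Of 18043 genes tested, edgeR's quasi-likelihood test called 1780 higher and 2331 lower in the knockouts, with a median log2 fold change of -0.0045. Scaled by library totals alone, these were 2340 higher and 1781 lower, with a median of 0.10. A gene is called changed below where the Benjamini-Hochberg adjusted p was under 0.05.

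The mitochondrial mRNAs were about 4-fold lower in the knockouts as a class. Their 13 rows took 5.79% and 6.09% of the counts of control replicates 1 and 3, and 1.44% and 1.76% of those of knockout replicates 1 and 3. The 95% Wilson intervals were 5.779 to 5.798%, 6.08 to 6.10%, 1.435 to 1.445% and 1.755 to 1.765%, and cover counting error only. In normalized CPM the summed mRNAs went from 61626 ± 2078 to 15477 ± 2936, a 3.98-fold difference. In bulk libraries, fewer cells with a transcript and less of it per cell cannot be told apart.

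Some nuclear RNAs were lower beside the mitochondrial ones. MALAT1, a long non-coding RNA kept in the nucleus, took 0.255% and 0.218% of counts in the controls against 0.0423% and 0.0571% in the knockouts (log2 fold change -2.35 ± 0.24, edgeR adjusted p = 0.00234). NEAT1, another nuclear RNA, took 0.0608% and 0.0629% against 0.0416% and 0.0145% (-1.27 ± 0.37, adjusted p = 0.0411). Their part in the mitochondrial result was not tested.

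Of the 13 mRNAs, 12 fell, 0 rose and 1, MT-ND3, was not called. Over all genes tested, 12.9% were called lower. No mRNA rose at an unadjusted p under 0.05 either (0 in edgeR), and DESeq2 and limma voom called 0 higher. The median log2 fold change was -2.04, against -0.0045 over all genes. All 13 had both knockouts below both controls, a separation that 34.1% of all tested genes also showed in that direction.

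Complex IV, cytochrome c oxidase, passes electrons to oxygen, and MT-CO1, MT-CO2 and MT-CO3 encode its catalytic core. MT-CO1 had 18485 and 18089.7 normalized CPM in the controls against 4710.4 and 4466 in the knockouts (log2 fold change -1.99 ± 0.26, edgeR adjusted p = 0.00373). Both control values lay far above both knockout values, and the libraries of each group were close to each other. MT-CO2 was at 4754 and 5024 in the controls against 1196 and 2128 in the knockouts (-1.56 ± 0.29, adjusted p = 0.00970), so its knockout libraries differed from each other by 1.78-fold. Its call was lost when either control was left out, with an adjusted p of at most 0.0686. MT-CO3 was at 4677 and 4777 against 997 and 1578 (-1.88 ± 0.26, adjusted p = 0.00455).

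Complex I, NADH dehydrogenase, has 7 mitochondrially encoded subunits, of which 6 fell; the median of the 7 on the log2 scale was -2.14. MT-ND4, a membrane subunit, had 9555 and 9175 normalized CPM in the controls against 1413 and 2279.6 in the knockouts. Its log2 fold change of -2.34 ± 0.29 (edgeR adjusted p = 0.00342) was the lowest of the 13 mRNAs. MT-ND1 (-1.75 ± 0.23), MT-ND2 (-1.64 ± 0.28), MT-ND4L (-2.14 ± 0.19), MT-ND5 (-2.21 ± 0.22) and MT-ND6 (-2.26 ± 0.22) also fell. The call of MT-ND2 was lost without control replicate 3, at an adjusted p of 0.0532. MT-ND3, a small membrane subunit, was at 479 and 539.7 in the controls, but at 121 in the first knockout library (replicate 1) and 335 in the other (replicate 3). Its groups did not overlap, but the knockouts were 2.76-fold apart, the widest ratio among the mRNAs, and the log2 fold change of -1.16 ± 0.38 missed the threshold (edgeR adjusted p = 0.0588). It was -2.002 without knockout replicate 3 and -0.59 when knockout replicate 1 was the one left out, and called in both of those fits, in which the lone knockout is assumed to vary like the controls.

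Complex III has 1 mitochondrially encoded subunit, cytochrome b (MT-CYB), which had 4019 and 4686 normalized CPM in the controls against 816 and 1301 in the knockouts (-2.04 ± 0.27, edgeR adjusted p = 0.00380). Both subunits of the membrane part of ATP synthase fell. MT-ATP8 was at 1379 and 1609 in the controls against 295 and 313 in the knockouts (-2.30 ± 0.19, adjusted p = 0.00189), and MT-ATP6 at 3883 and 4852 against 905 and 1053 (-2.16 ± 0.23, adjusted p = 0.00284). The knockouts differed from each other by only 1.06-fold and 1.16-fold here, less than for MT-CO2 or MT-ND3.

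**Figure D1:**
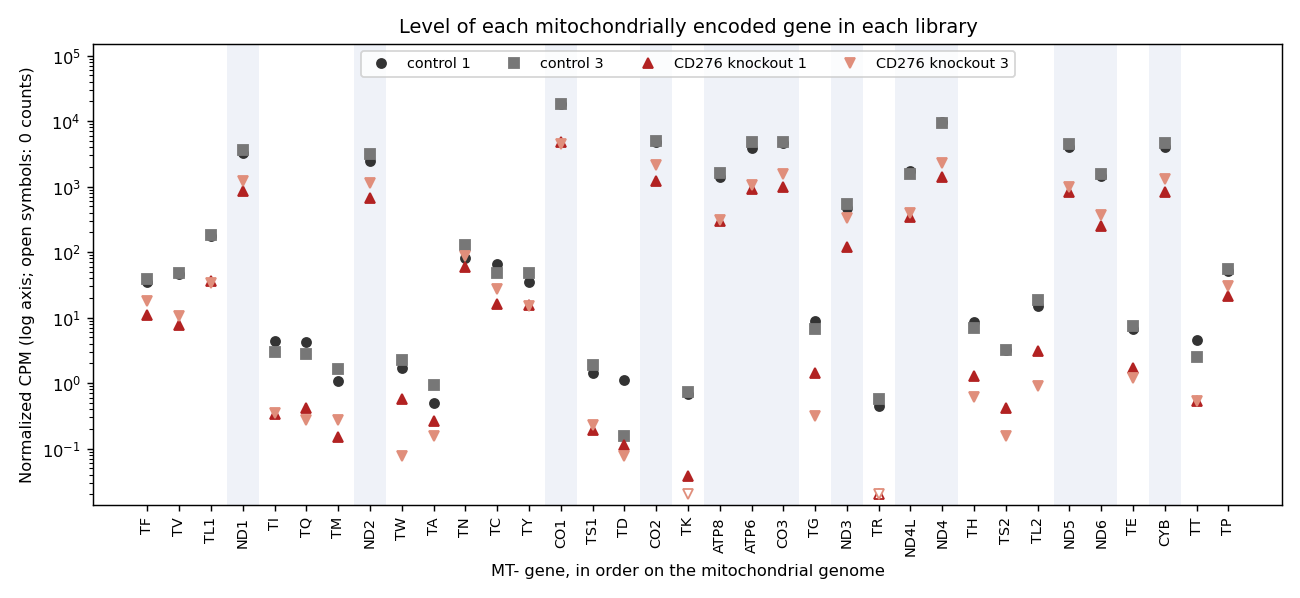
Normalized CPM on a log axis for each of the 35 MT- genes, in order on the genome, with 1 symbol per library and mRNAs on a shaded ground. The knockout symbols lie below both control symbols for all 13 mRNAs and for 21 of the 22 tRNAs, the exception being MT-TN.

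MT-ATP8 and MT-ATP6 (GRCh38, chromosome M, plus strand, 8366 to 8572 and 8527 to 9207) share 46 bases, so the assignment of reads in that stretch is uncertain. It is printed because it is the largest overlap between genes of the set, in capitals the start codon of MT-ATP6 and the stop codon of MT-ATP8, from the GENCODE 29 transcripts.
MT-ATP8 and MT-ATP6 shared stretch: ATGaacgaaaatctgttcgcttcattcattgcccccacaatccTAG
MT-ND4L (10470 to 10766) and MT-ND4 (10760 to 12137) share 7 bases, and MT-ATP6 and MT-CO3 share 1. The treatment of reads that touch more than 1 gene was not given in the sources used here.

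Per kilobase of annotated length, MT-CO1 was the highest mRNA in the controls, at 11859 normalized CPM per kb. MT-ATP8, MT-CO2 and MT-ND4 followed at 7217, 7148 and 6796 per kb, and the control libraries put these 3 in different orders, so their ranks do not differ beyond the spread. MT-ND3 was the lowest at 1472 per kb. In the knockouts MT-CO1 was at 2976 and MT-CO2 at 2430 per kb, and knockout replicate 3 had MT-CO2 first, at 3111 against 2897. MT-ND5 took the last place of MT-ND3 in that library, at 552 against 967 per kb. MT-CO1 made up 30.7% and 28.7% of the mRNA counts of the controls, 35.2% of those of knockout replicate 1 and 25.4% of those of knockout replicate 3, so its share lay on both sides of the controls.

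By strand, the minus-strand mRNA could not be told from the plus-strand ones by its change. MT-ND6 (14149 to 14673, minus strand) is the single mRNA read from that strand and, as background, the one mitochondrial mRNA known to lack a poly(A) tail. It had 1434 and 1550.4 normalized CPM in the controls against 254 and 369.5 in the knockouts. Its log2 fold change of -2.26 lay within the range of the 12 plus-strand mRNAs, -2.34 to -1.16, whose median was -2.02. The use of strand in counting was not given in the sources used here, and without strand, reads of the opposite strand would be counted for MT-ND6 too.

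By order, the first 6 plus-strand mRNAs (MT-ND1 to MT-ATP6) had a median log2 fold change of -1.87 and a range of -2.30 to -1.56. The last 6 (MT-CO3 to MT-CYB) had a median of -2.09 and a range of -2.34 to -1.16, so the ranges overlap. Across these 12 genes, Spearman's rho between order and log2 fold change was -0.47. It was -0.83 for knockout replicate 1 and -0.31 for knockout replicate 3, each set against the control mean. The points share the same 4 libraries and are not independent, so the values are a description, and the single libraries differ in how clear the order is.

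**Figure D2:**
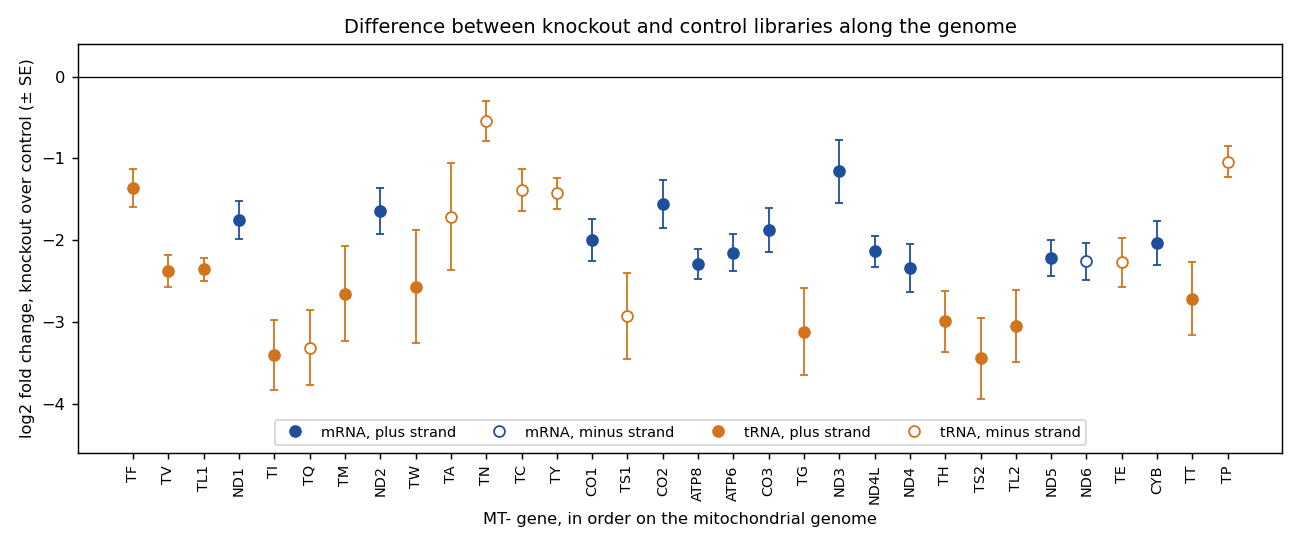
Log2 fold change of knockout over control (± SE) for 32 MT- genes in order on the genome, with mRNAs in blue, tRNAs in orange and minus-strand genes as open symbols. MT-TD was not tested, and MT-TR and MT-TK are left out because they had 0 or 1 count in each knockout. The mRNAs lie between -2.34 and -1.16, while the tRNAs spread from -3.45 to -0.54.

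The tRNAs also fell, over a wider range of log2 fold changes than the mRNAs. Of the 22, 21 passed the filter on low counts. Those rarest in the knockouts, such as MT-TI, MT-TM, MT-TS1, MT-TK and MT-TR, passed it only through the controls. They could be tested only because they were higher there, so their direction is not separate support. Of the 21, 19 fell, 0 rose and 2 (MT-TN and MT-TA) were not called, where 12.9% of all genes tested were called lower. At an unadjusted p under 0.05, edgeR had 0 higher, and DESeq2 and limma voom called 0 higher. The median log2 fold change was -2.65, or -2.57 with MT-TR at its bound. In 21 of the 22, the knockouts lay below both controls, a separation that 34.1% of all tested genes also showed in that direction. Counts limit these values, since they ran from 3 to 3936 in the controls and from 0 to 2236 in the knockouts, and 11 tRNAs had under 20 counts in both knockouts. Fewer tRNAs were called lower when either control was left out, as was the case over all genes. With any 1 library left out, the highest log2 fold change of these 21 tRNAs was -0.17, for MT-TN.

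The tRNA genes are 59 to 75 bases long, and the reads were 150 bases. An untrimmed read that covers a tRNA reaches into its neighbours, and the counts need not stand for mature tRNA. Levels of tRNAs per kilobase are not compared with those of mRNAs for this reason.

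Summed over the class, where abundant members weigh most, the tRNAs were lower by a smaller fold than their median. They took 0.0532% and 0.0587% of all control counts against 0.0189% and 0.0228% of the knockout ones (95% Wilson intervals 0.0522 to 0.0541%, 0.0576 to 0.0597%, 0.0184 to 0.0195% and 0.0222 to 0.0233%). In normalized CPM this was 580.3 ± 39.3 against 202 ± 35.9, a 2.88-fold difference, where the mRNAs had 3.98-fold. Of all MT- counts, tRNAs made up 0.910% and 0.955% in the controls against 1.30% and 1.28% in the knockouts.

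The 6 tRNAs shown here mark the ends of that range. They are the 3 with the highest and the 3 with the lowest log2 fold change among the 11 tRNAs with at least 100 counts in each control, a limit chosen after the values were seen. The sequences are from the GENCODE 29 transcripts (GRCh38), printed 5′ to 3′ with the anticodon in capitals.
MT-TN: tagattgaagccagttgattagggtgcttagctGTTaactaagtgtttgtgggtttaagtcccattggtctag
MT-TP: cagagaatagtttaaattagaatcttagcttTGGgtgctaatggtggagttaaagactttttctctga
MT-TF: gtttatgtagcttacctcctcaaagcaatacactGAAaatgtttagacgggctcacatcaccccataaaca
MT-TG: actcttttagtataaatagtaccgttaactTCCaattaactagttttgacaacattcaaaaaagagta
MT-TL2: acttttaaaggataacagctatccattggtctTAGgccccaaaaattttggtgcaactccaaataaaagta
MT-TH: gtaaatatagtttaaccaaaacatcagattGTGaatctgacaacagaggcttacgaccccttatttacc

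MT-TN, the tRNA for asparagine (5657 to 5729, minus strand), had 1832 and 2523 counts in the controls against 1550 and 2236 in the knockouts. In normalized CPM it was at 82.0 and 130.3 against 59.0 and 86.4, and it is the 1 member whose groups overlapped. Its log2 fold change of -0.54 ± 0.24 missed the threshold (edgeR adjusted p = 0.137). It ran from -0.84 to -0.17 over 14 alternatives and passed the threshold in 2 of them. MT-TN made up 14.9% and 21.4% of the control tRNA counts against 33.5% and 38.1% of the knockout ones, with 95% Wilson intervals of 14.2 to 15.5%, 20.7 to 22.2%, 32.1 to 34.9% and 36.8 to 39.3%. It had the highest level per kilobase of the tRNAs in both knockouts, at 809 and 1184 normalized CPM per kb, while MT-TL1 had that in both controls, at 2350 and 2418.

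MT-TP, the tRNA for proline (15956 to 16023, minus strand), fell from 51.0 and 55.8 to 21.4 and 30.5 normalized CPM (-1.04 ± 0.19, edgeR adjusted p = 0.00926). MT-TF, the tRNA for phenylalanine and the first plus-strand gene (577 to 647), fell from 34.8 and 38.6 to 10.8 and 17.8 (-1.36 ± 0.23, adjusted p = 0.00758). The groups did not overlap for either, and in both genes knockout replicate 3 was the higher knockout. MT-TC (cysteine, -1.39 ± 0.26) and MT-TY (tyrosine, -1.43 ± 0.19) came next. The calls of MT-TP and MT-TC were lost without control replicate 1, and that of MT-TP also without control replicate 3, at adjusted p of at most 0.0805.

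At the other end, MT-TG, the tRNA for glycine (9991 to 10058, plus strand), had 196 and 128 counts in the controls against 38 and 8 in the knockouts. That was 8.78 and 6.61 against 1.45 and 0.309 normalized CPM (-3.12 ± 0.53, edgeR adjusted p = 0.00728). MT-TL2, the tRNA for leucine with the CUN codons (12266 to 12336), had 332 and 353 counts against 81 and 23 (-3.05 ± 0.44, adjusted p = 0.00496), and MT-TH, for histidine (12138 to 12206), 188 and 134 against 34 and 16 (-2.995 ± 0.37, adjusted p = 0.00342). In each of the 3, knockout replicate 3 was the lower knockout, the reverse of MT-TP and MT-TF.

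Among the less counted tRNAs, leaving aside MT-TR and MT-TK with 0 or 1 count in each knockout, MT-TI (isoleucine, -3.41 ± 0.43), MT-TQ (glutamine, -3.31 ± 0.45) and MT-TS2 (serine, -3.45 ± 0.49) had the lowest log2 fold changes on counts of 53 to 99 in the controls and 4 to 11 in the knockouts. MT-TI and MT-TQ overlap by 3 bases on opposite strands. MT-TS1 (the other serine tRNA, -2.93 ± 0.52), MT-TT (threonine, -2.72 ± 0.44), MT-TM (methionine, -2.65 ± 0.58) and MT-TW (tryptophan, -2.57 ± 0.69) also fell, all 4 calls being lost without control replicate 1, at adjusted p up to 0.205, and all but that of MT-TT also without control replicate 3. MT-TW had 15 counts in knockout replicate 1 and 2 in knockout replicate 3. MT-TE (glutamate) fell as well (-2.27 ± 0.30). MT-TA (alanine), with 11 and 18 counts against 7 and 4, was not called (-1.72 ± 0.65, edgeR adjusted p = 0.0892).

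The rarest tRNAs allow only rough statements. MT-TR (arginine) had 10 and 11 counts in the controls and 0 in both knockouts, which makes it at least 4.41-fold lower, with 3 counts per knockout library as the floor. MT-TK (lysine) had 15 and 14 counts against 1 and 0, a ratio of control to knockout of 36.3 with a 95% counting interval of 6.01 to 1481. MT-TD (aspartate) had 25 and 3 counts in the controls against 3 and 2 in the knockouts and was not tested, so the controls alone spanned most of its range.

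The tRNAs with many counts had a common place on the genome. Exactly 7 tRNAs had at least 500 counts in each control (748 or more), while the other 15 had at most 353. Of the 7, 6 lie beside a stretch of at least 30 bases that holds no analysed gene, and no other tRNA does. MT-TF, MT-TV and MT-TL1 flank the rRNA genes, MT-TN and MT-TC flank a gap of 31 bases that holds the origin of light-strand replication, and MT-TP borders the control region. The 7th, MT-TY, overlaps MT-TC by 1 base and has 12 free bases on its other side. These limits of 500 counts and 30 bases were chosen after the values were seen.

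The 6 tRNAs beside such a stretch had a median log2 fold change of -1.37 (5 fell), and the other 16, of which 15 were tested, had -2.995 (14 fell). The rarest of these 15 passed the filter only through the controls. By strand, the medians differed on both sides of that split, while single genes overlapped. Since the use of strand in counting was not given, the row of a tRNA may also hold reads of the opposite strand. The medians are thus by annotated strand and need not describe transcripts of that strand alone. Beside a stretch, the 3 minus-strand tRNAs (MT-TN, MT-TC, MT-TP) had a median of -1.04 and the 3 plus-strand tRNAs (MT-TF, MT-TV, MT-TL1) of -2.36. Among the others, the 5 minus-strand tRNAs had -2.27 and the 10 tested plus-strand tRNAs -3.09. Plus-strand MT-TF, at -1.36, lay above minus-strand MT-TC, and minus-strand MT-TQ and MT-TS1, at -3.31 and -2.93, lay below plus-strand MT-TT, MT-TM and MT-TW. Over all tRNAs the medians were -1.57 for 8 on the minus strand and -2.995 for 13 on the plus strand, with ranges that overlap, and no test of this difference was made. With MT-TR at its bound, the median was -2.72 for the 13 plus-strand tRNAs, -2.93 for the 15 not beside a stretch and -3.02 for the 10 of these on the plus strand. MT-TK was kept at its fitted value of -4.84, while its bound by the same floor was -2.60. These 3 medians could therefore be less negative than given.

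**Figure D3:**
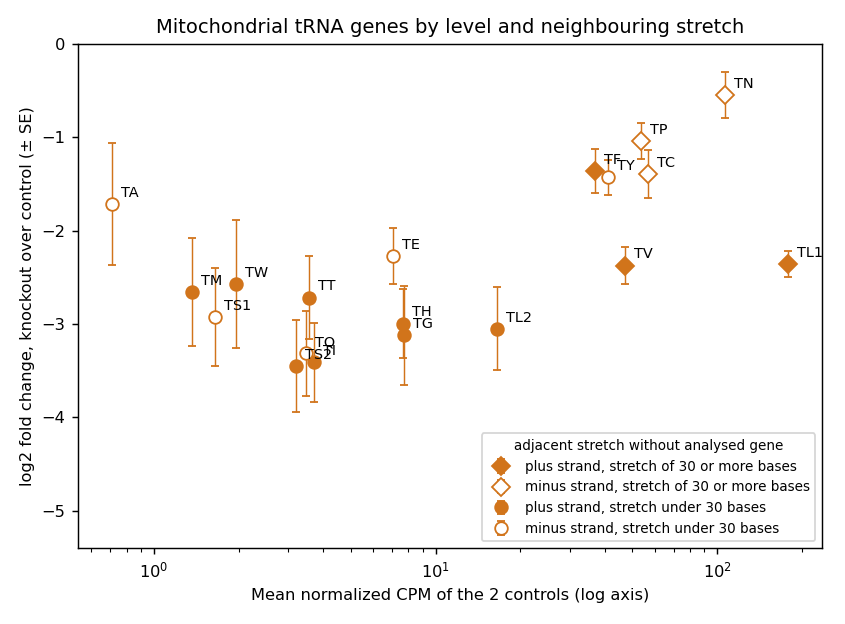
Log2 fold change (± SE) of 19 mitochondrial tRNA genes against their mean normalized CPM in the 2 controls (log axis), with diamonds for genes beside a stretch of 30 or more bases without an analysed gene and open symbols for the minus strand. All 6 diamonds lie at the right, and MT-TV and MT-TL1 lie lower, at -2.37 and -2.36, than the other 4, between -1.39 and -0.54.

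MT-TL1 and MT-TV show that a high count does not go with a small change in every case. MT-TL1, the tRNA for leucine with the UUR codons (3230 to 3304), had 3936 and 3513 counts in the controls against 933 and 883 in the knockouts (-2.36 ± 0.14, edgeR adjusted p = 0.000592). MT-TV, for valine (1602 to 1670), had 1035 and 922 against 200 and 272 (-2.37 ± 0.20, adjusted p = 0.00189). Across the 21 tested tRNAs, Spearman's rho between log2 control level and log2 fold change was 0.64, a description over genes that share libraries and with fitted values for MT-TR and MT-TK that depend on the prior count. The log2 fold changes of MT-TV and MT-TL1 lay close to that of the lowest mRNA, MT-ND4.

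To ask which members changed by another fold than the mitochondrial mRNAs together, all genes were refitted with the summed counts of the 13 mRNAs as library size. On this relative scale a value of 0 means the same fold as the mRNA sum. Of the 34 members tested, 5 were called higher and 6 lower. Over all genes tested, 89.2% were called higher and 0.510% lower on this scale. Adjustment over a table in which 89.7% of genes pass hardly raises a p (the highest unadjusted p among the 11 was 0.0418), and all members share 1 denominator.

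The members called higher than the mRNA sum were MT-TN, MT-TP, MT-TF, MT-ND3 and MT-CO2. MT-TN had a relative log2 fold change of 1.44 ± 0.27 (edgeR adjusted p = 0.000122) and stayed past the threshold in all 9 alternatives, with an adjusted p of at most 0.0411. MT-TP was at 0.94 ± 0.27 (adjusted p = 0.00404) and lost its call when either control was left out, at adjusted p up to 0.143. MT-ND3 (0.77 ± 0.28, adjusted p = 0.0187), MT-TF (0.61 ± 0.28, 0.0467) and MT-CO2 (0.41 ± 0.17, 0.0343) were nearer to the threshold. Each lost its call without control replicate 1 and without control replicate 3, at adjusted p up to 0.252, 0.332 and 0.199, and MT-ND3 and MT-CO2 also without knockout replicate 3. With MT-CO1 left out of the denominator, MT-TF and MT-CO2 lost their calls too, and the call of MT-CO2 held in 4 of 9 alternatives.

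The tRNAs called lower were MT-TI (-1.43 ± 0.51, edgeR adjusted p = 0.0168), MT-TQ (-1.31 ± 0.54, 0.0330), MT-TS2 (-1.42 ± 0.59, 0.0322) and the rarely counted MT-TK and MT-TR. These tRNAs had at most 11 counts in a knockout library. The filter on low counts was that of the main fit, and they would not have passed it on the knockouts alone. Their direction is thus not separate support. The 1 mRNA called lower was MT-ND4 (-0.37 ± 0.15, edgeR adjusted p = 0.0337). Without control replicate 1, 1 member was called in each direction (MT-TN and MT-TR), and likewise without control replicate 3 (MT-TN and MT-TI). Without knockout replicate 1 there were 9 higher and 13 lower, and MT-ND4 was not among them. The call of MT-ND4 held in 4 of 9 alternatives and was also lost with MT-CO1 left out of the denominator. Without knockout replicate 3, MT-TQ, MT-TS2 and MT-TK lost their calls. MT-TG, MT-TL2 and MT-TH, at -1.05, -0.96 and -0.95, missed the threshold with adjusted p of 0.0870, 0.0657 and 0.0571, and were called without knockout replicate 1. The other 10 mRNAs lay between -0.28 and 0.33 and were not called. That does not show that they changed by the same fold, only that no difference was detected with 2 libraries a group.

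**Figure D4:**
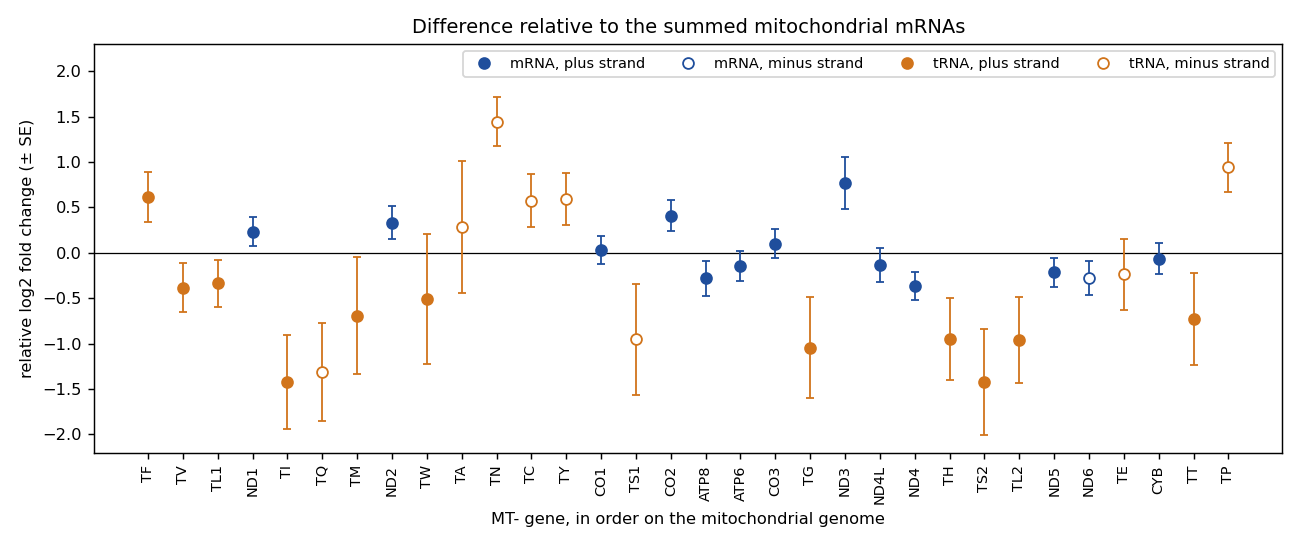
Log2 fold change relative to the summed mitochondrial mRNAs (± SE), for 32 MT- genes in order on the genome, with colours and symbols by class and strand. The mRNAs stay between -0.37 and 0.77, MT-TN and MT-TP stand highest at 1.44 and 0.94, and MT-TG, MT-TH and MT-TL2 lie between -1.05 and -0.95, with MT-TS2 lower at -1.42.

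The 2 knockout libraries differed from each other for most mRNAs in 1 direction and for tRNAs in both. In knockout replicate 3, 12 of the 13 mRNAs were above their level in knockout replicate 1, with a median ratio of 1.46, and only MT-CO1 was below. Of the 22 tRNAs, 9 were higher and 12 lower there, with a median ratio of 0.961, and MT-TR was at 0 in both. Split by the stretches described above, a split made after the values were seen, the ratios of the groups were unlike. Of the 6 tRNAs beside a long stretch, 5 were also higher in knockout replicate 3 (median ratio 1.45). Of the other 16 tRNAs, 11 were lower and 4 higher there, with a median ratio of 0.65. The 3 tRNAs that follow each other between MT-ND4 and MT-ND5 (MT-TH, MT-TS2 and MT-TL2) were all lower, at 0.48, 0.37 and 0.29 times knockout replicate 1, while the mRNAs on their sides, MT-ND4 and MT-ND5, were at 1.61 and 1.21 times. Over all genes tested, 9039 were higher and 8981 lower in knockout replicate 3, with a median ratio of 1.00. With 1 library on each side, these ratios have no test.

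**Figure D5:**
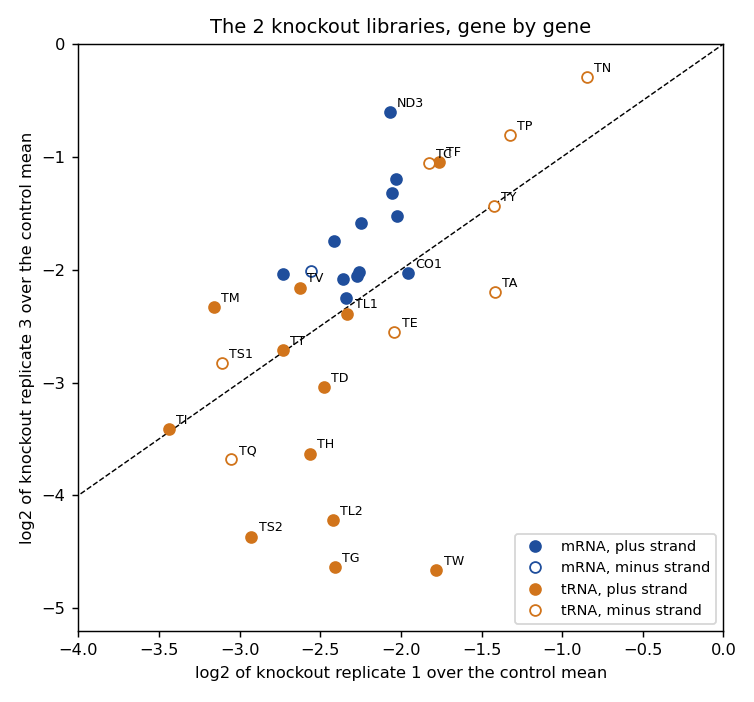
Log2 ratio to the control mean in knockout replicate 1 (x axis) and knockout replicate 3 (y axis) for the 33 MT- genes with counts in both, with a dashed line where they are equal. All mRNAs but MT-CO1 lie above the line, while MT-TG, MT-TW, MT-TS2, MT-TL2 and MT-TH lie far below it.

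Among nuclear genes that handle mitochondrial RNA and DNA, calls went in both directions. Of 47 genes listed, all tested, 4 rose, 8 fell and 35 were not called, where 9.87% of all genes were called higher and 12.9% lower. Their median log2 fold change was -0.09. Scaled by library totals alone, 5 rose and 3 fell. These counts were 0 and 0 without control replicate 1, 1 and 0 without control replicate 3, 11 and 16 when knockout replicate 1 was left out, and 14 and 12 when it was knockout replicate 3. Over all genes, the same fits called 45 higher and 267 lower, 151 and 448, 4242 and 4471, and 4795 and 4403, so the list's counts moved along with those of all genes.

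In transcription, TFAM, which packages mitochondrial DNA and binds its promoters, rose from 29.6 ± 0.396 to 48.3 ± 3.31 normalized CPM (0.70 ± 0.15, edgeR adjusted p = 0.0134). TFB2M, which melts the promoter with the polymerase, rose from 19.6 ± 2.75 to 46.6 ± 9.73 (1.25 ± 0.20, adjusted p = 0.00613). The polymerase POLRMT (-0.20 ± 0.14, adjusted p = 0.331) and the elongation factor TEFM (0.20 ± 0.19, adjusted p = 0.478) were not called. MTERF2, of the mTERF family of mitochondrial nucleic acid binding proteins, fell (-0.65 ± 0.15). So did its relatives MTERF3 (-0.54) and MTERF4 (-0.57) and MTRES1 (-0.57, under an older symbol in the table), chosen after their values were seen. The 4th of the family, MTERF1, was not called (-0.49 ± 0.16, edgeR adjusted p = 0.0606). On 51.0% of the exonic bases of MTERF4 lies a gene of the other strand, and its counts may include that gene. For MTERF2 and TEFM this overlap is 11.6% and 26.1%.

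For the stability of mitochondrial mRNAs, the partners LRPPRC and SLIRP went opposite ways. LRPPRC rose from 77.1 ± 6.01 to 104 ± 1.02 normalized CPM (0.44 ± 0.13, edgeR adjusted p = 0.0480) and SLIRP fell from 76.2 ± 9.03 to 42.9 ± 10.3 (-0.83 ± 0.19, adjusted p = 0.0172). On 10.4% of the exonic bases of SLIRP lies another gene of the same strand. The helicase SUPV3L1 of the RNA degradation complex fell (-0.46 ± 0.14, adjusted p = 0.0456), and its partner PNPT1 was not called (0.23 ± 0.14, adjusted p = 0.266). The call of LRPPRC held in 9 of 14 alternatives and that of SUPV3L1 in 7 of 14, with adjusted p up to 0.542 and 0.484. The poly(A) polymerase MTPAP (-0.37 ± 0.15, 0.104), the 3′ endonuclease ELAC2 (-0.22 ± 0.13, 0.265) and the RNase P subunit TRMT10C (0.29 ± 0.16, 0.209) were not called. Other genes of the same strand lie on 19.7% of the exonic bases of MTPAP, and of the other strand on 13.4%. FASTK, whose family acts in mitochondrial RNA maturation, fell (-0.78 ± 0.15, 0.0113), as did MRM1, an rRNA methyltransferase (-0.59 ± 0.15), while RNASEH1, which cleaves RNA paired with DNA, rose (0.77 ± 0.23). MRM1 and RNASEH1 were chosen after their values were seen. When either control was left out, none of the genes of this list but TFB2M kept its call, and TFB2M only without control replicate 3.

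Most nuclear partners of the mitochondrial subunits were not called. Of 33 genes listed, 2 rose, 8 fell and 23 were not called, where 9.87% of all genes were called higher and 12.9% lower. Their median log2 fold change was -0.33. The counts were 0 and 0 when either control was left out, 5 and 12 when knockout replicate 1 was, and 4 and 22 when knockout replicate 3 was, in the same fits whose counts over all genes are given above. By complex, the nuclear medians were -0.46 for complex I, -0.33 for complex III, -0.37 for complex IV and -0.21 for ATP synthase, beside -2.14, -2.04, -1.88 and -2.23 for the mitochondrially encoded subunits. Complex II, which has no mitochondrially encoded subunit, had 0.34. SDHC of complex II (0.83 ± 0.14, edgeR adjusted p = 0.00685) and ATP5PB of ATP synthase (0.66 ± 0.14, 0.0138) rose, and NDUFS8 of complex I fell (-0.80 ± 0.18, 0.0167). A gene of the other strand lies on 10.35% of the exonic bases of ATP5PB. The median of the 33 was -0.54 for knockout replicate 1 and -0.14 for knockout replicate 3, each against the control mean.

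Nuclear copies of mitochondrial genes were lower too. Of 392 such pseudogenes, 316 were at 0 in all libraries and 11 passed the filter. Of these, 10 fell, where 12.9% of all genes tested were called lower. A copy that is rare in the knockouts passes the filter only through the controls, as MTND4P12 did with 50 and 42 counts against 10 and 8. The direction of such copies is thus partly set by the filter. MTATP6P1 had 21014 and 9525 counts in the controls against 1475 and 2012 in the knockouts (-3.42 ± 0.32, edgeR adjusted p = 0.00200). MTCO1P12, MTND2P28 and MTND4P12 had log2 fold changes of -2.37, -2.10 and -2.66. The call of MTATP6P1 was lost when either knockout was left out, and that of MTND4P12 when either control was left out. Copies can be near-identical to MT- genes, so the counting may split reads between them and these values are uncertain. All copies summed to 23381 and 11021 counts in the controls, beside 1355673 and 1233893 for the MT- genes.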

How the data were processed

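Poly(A)-selected RNA of 4 libraries was sequenced as paired reads of 150 bases, per the labels' protocols. The authors deposited raw counts per gene. The tools were featureCounts from Subread 1.5.2, STAR 2.5.2b and Trimmomatic 0.36 with GRCh38, per the submitters' processing notes. Whether counting used strand, how reads on several genes or places were treated, and which annotation was used were not given in the sources used here. The 486 rows without a gene name (0.0191% to 0.0290% of a library) were left out, and 0 columns were left unmapped. Counts were filtered with filterByExpr, scaled by TMM and tested with edgeR 4.0.16 (R 4.3.3; glmQLFit with robust=TRUE, no covariate beside group, 2 residual degrees of freedom), adjusted by Benjamini-Hochberg over all genes. The SE is the log2 fold change divided by the square root of F. Positions, strands and sequences are from GENCODE 29. The scripts were tested on simulated counts. Genes named are all MT- genes, CD276, 11 machinery genes whatever their values with the 5 of smallest p, the 3 partners of smallest p and the 4 most abundant copies; others are marked. The members and lists were chosen with earlier results of these data known. Alternatives were other scalings, filters and denominators, DESeq2 1.42.0, limma voom (3.58.1), robust=FALSE, a replicate block and leaving out each library. No label gives a batch. Sums over members were not tested, since 2 against 2 libraries cannot go below p = 0.333 in a two-sided exact permutation test.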

Additional observations from a re-analysis of the deposited data

How the results depend on the processing

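The counts of mRNAs and tRNAs that fell stayed within 1.5 times the reported count under every other scaling, filter and tool, and no MT- gene was called higher in any setting (0). Leaving out each library in turn gave 10 to 13 mRNAs and 11 to 20 tRNAs lower. On the scale relative to the mRNA sum it gave 1 to 13 members lower and 1 to 9 higher, and MT- mRNAs without MT-CO1 as denominator gave 3 higher. For the machinery list it gave 0 to 14 higher and 0 to 16 lower, with 3 lower under library totals alone. For the partners it gave 0 to 5 higher and 0 to 22 lower, and for the nuclear copies 4 to 9 lower, with 3 lower under the filter of 50 counts, where fewer were tested. Apart from fewer samples or genes tested, the cause of these shifts was not tested. Relative values of uncalled members that changed sign ran from -2.81 to 0.43 for MT-TW, -0.36 to 0.80 for MT-TA, -0.22 to 0.24 for MT-CO1, -0.045 to 0.23 for MT-CO3, -0.74 to 0.16 for MT-TE and -0.21 to 0.071 for MT-CYB when a library was left out. The share of mRNAs in the controls was a mean of 5.94% of all counts and 6.32% of the nuclear counts. Replicate numbers 1 and 3 are shared by the groups, and the labels do not say whether they pair libraries. Deviations of same-numbered libraries did not go together (r = -0.015 across 18043 genes). With 2 libraries a group, this cannot decide whether they were paired. With the replicate block, 13 mRNAs and 20 tRNAs were lower. On the relative scale, the block gave 8 members lower and 4 higher, and MT-CO2 and MT-ND4 lost their calls. Depth limits the tRNAs under 20 counts.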
